A study of Mus musculus with 6 samples.

Results

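This account covers 36 genes of MYC and ribosome biogenesis in cultured mouse CD8+ T cells that received the lipid sphingosine-1-phosphate (S1P) or vehicle. The genes encode MYC and its partner MAX, enzymes of polyamine synthesis, subunits and factors of RNA polymerase I, and nucleolar proteins that process ribosomal RNA and assemble ribosomal subunits. They were taken by symbol from the GENCODE vM39 annotation of GRCm39, and all 36 were found among the 56941 Ensembl genes of the count table. All 36 had enough counts for a test, as had 13299 genes in all. CD8+ T cells from spleens of B6 mice were activated for 3 days with plate-bound antibodies to CD3 and CD28 and with recombinant IL-2 at 100 U/ml. The vehicle-treated group (3 samples) and the S1P-treated group (3 samples, 5 µM) shared this activation, and S1P or vehicle was added 24 h after it began. The labels name purified naive CD8+ T cells as the starting cells, while the study's methods for such cultures give purified naive T cells or whole splenocytes, and the labels number the samples as biological replicates, without saying whether each came from a separate mouse. The study asked how S1P, which signals through receptors such as S1PR1, changes the transcriptome of activated CD8+ T cells.

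MYC is a transcription factor that T cells induce within hours of antigen receptor signaling, and it binds DNA as a dimer with MAX. Its best known targets include ornithine decarboxylase and the genes for making ribosomes. In the nucleolus, RNA polymerase I transcribes a long ribosomal RNA precursor, and small nucleolar ribonucleoproteins (snoRNPs) guide its methylation (box C/D) and pseudouridylation (box H/ACA). The small subunit processome and a series of large subunit assembly factors then cut the precursor and fold it with ribosomal proteins. Polyamines are small cations that bind RNA, and spermidine also serves to modify the translation factor eIF5A.

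Total counts were between 12048880 and 17384084 per sample. S1P-treated replicate 2 stood apart, with 7.80% of its counts on mitochondrially encoded genes against 4.10% to 4.93% in the other 5 samples. The CD8 T cell markers were all detected, and Cd8a itself was lower after S1P, at 208, 251 and 207 CPM (counts scaled to a common library size by TMM factors) in vehicle-treated replicates 1, 2 and 3 and 144, 132 and 142 in S1P-treated replicates 1, 2 and 3, a log2 fold change of -0.67 (adjusted p by edgeR = 0.000243). Summed over the 6 CD8 T cell markers the level was 1091 to 1249.6 CPM with vehicle and 947 to 1052 CPM with S1P. Of the 6, Cd3d, Cd3e, Cd3g and Trac are expressed by CD4 T cells as well. The 2 that fell were Cd8a and Cd8b1, the latter with a log2 fold change of -0.55 (adjusted p by edgeR = 0.00767). B cell markers were also present, with 7 of 7 tested, 2 of them lower, and a sum of 625 to 786 CPM with vehicle and 632 to 729 CPM with S1P. Ms4a1, for the B cell antigen CD20, stood at 229.5, 185 and 227 CPM with vehicle and 151, 169.6 and 171 CPM with S1P. Cd4 stood at 201, 186 and 223 CPM with vehicle and 195, 254 and 206 CPM with S1P. Per kilobase of transcript, the mean levels of Cd8a, Cd4 and Ms4a1 were 70.9, 65.4 and 69.6 CPM with vehicle and 44.6, 70.3 and 53.3 CPM with S1P, so that Cd8a was the lowest of the 3 with S1P, and the values below are those of cultures that held transcripts of CD4 T cells and B cells as well. The 3 CD4 T cell markers summed to 217 to 257 CPM with vehicle and 235 to 296 CPM with S1P, with 1 of them higher. Sums over 6 myeloid markers, 4 NK cell markers and 4 erythroid markers stayed at or under 5.70 CPM. In such bulk samples, fewer cells of a type and less RNA per cell cannot be told apart, and the part of cell makeup in the results below was not tested.

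Most of the 36 genes had lower scaled mRNA levels in the S1P-treated than in the vehicle-treated samples. The falls lay among the factors that make ribosomes and polyamines rather than in Myc or Max. Genes counted as called where the quasi-likelihood test of edgeR gave a p up to 0.05 after Benjamini-Hochberg adjustment over all 13299 genes and where the size of the log2 fold change reached 0.3. Of the 36 genes, 23 fell and 0 rose, or 63.9% lower, where 10.4% of all genes tested were called lower and 12.7% higher. With edgeR at an unadjusted p of 0.05, 2 genes were higher (Myc and Max) and 28 lower. At that cutoff 2777 of all 13299 genes tested were higher and 2605 lower. DESeq2 called 24 lower and 0 higher, and limma-voom 23 lower and 0 higher. The median log2 fold change of the 36 genes was -0.38, against 0.01 over all genes tested. For 29 of the 36 genes the CPM ranges of the groups were apart, 27 of them lower and 2 higher with S1P, where 22.6% of all genes tested were lower and 23% higher without overlap. Of the 13 genes that were not called, 3 (Polr1a, Rrn3 and Pes1) passed the adjusted p with a change just under 0.3.

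**Figure D1:**
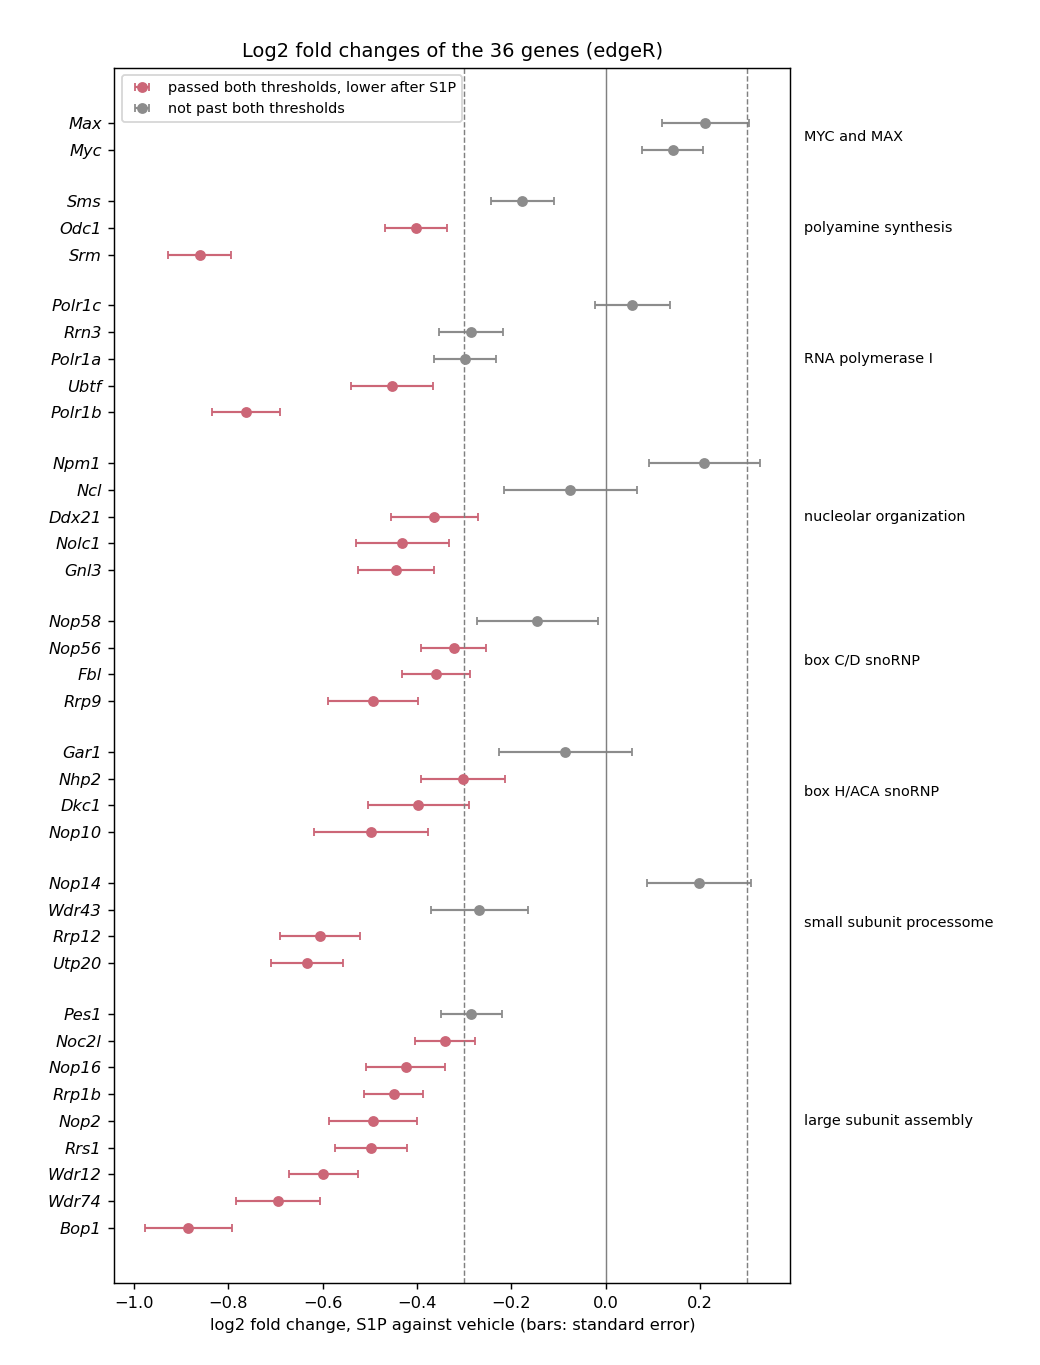
Log2 fold change between S1P-treated and vehicle-treated samples for each of the 36 genes (horizontal axis, log2 units, 3 samples per group), with bars for the standard error and dashed lines at -0.3 and 0.3. The 23 genes that fell, in red, reach -0.88 for Bop1, and the 5 genes to the right of 0 (Max, Npm1, Nop14, Myc and Polr1c) are all grey, since none passed the test.

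MYC-MAX dimers, like MXD1-MAX and MXI1-MAX dimers, bind the E-box CACGTG, so the promoters of the 36 genes were searched for it. RefSeq promoter windows of GRCm38.p6, from 250 bases before to 50 bases after the start site, were at hand for 29 of the 36 genes (all but Bop1, Fbl, Myc, Npm1, Rrp12, Rrs1 and Srm). The motif reads the same on both strands. At least 1 window held CACGTG in 7 of the 29 genes (24.1%), against 12% of 9337 tested genes and 8.09% of all 27025 genes with a window. Of the 18 genes with a window that fell, 2 held it, Utp20 and Nop2. Of the 11 that were not called, 5 held it (Max, Pes1, Rrn3, Sms and Wdr43). This split depends on the fold threshold. Pes1 (-0.28) and Rrn3 (-0.29) passed the adjusted p, Wdr43 (-0.27) and Sms (-0.18) had negative log2 fold changes, and only Max (0.21) had a positive one. The variant CACGCG, on either strand, was found in 11 of the 29 genes (37.9%) and in 20.3% of the tested genes. It differs from CACGTG in 1 base and stood in 8 of the 18 genes that fell and 3 of the 11 that were not called. A match is a description of these windows only, and genes can have more than 1 window.

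The windows of 4 genes are shown, with CACGTG in capitals, because they pair a fall with a match (Utp20 and Nop2), a fall without one (Polr1b) and 2 matches with a change just under the threshold (Rrn3). They run 5′ to 3′ on the gene's strand in GRCm38.p6, at chr10:88826765-88827064, minus strand for Utp20, chr6:125131633-125131932, plus strand for Nop2, chr2:129100746-129101045, plus strand for Polr1b and chr16:13780449-13780748, plus strand for Rrn3. Counted from the start site, the first base of the match lies at 38 in Utp20, -60 in Nop2, and -215 and -48 in Rrn3.
Utp20: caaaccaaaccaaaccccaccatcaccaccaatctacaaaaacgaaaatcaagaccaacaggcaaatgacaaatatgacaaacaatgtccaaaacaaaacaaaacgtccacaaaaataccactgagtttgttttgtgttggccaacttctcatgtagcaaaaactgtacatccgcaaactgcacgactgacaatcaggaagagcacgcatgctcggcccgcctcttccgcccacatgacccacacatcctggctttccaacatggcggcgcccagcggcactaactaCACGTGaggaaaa
Nop2: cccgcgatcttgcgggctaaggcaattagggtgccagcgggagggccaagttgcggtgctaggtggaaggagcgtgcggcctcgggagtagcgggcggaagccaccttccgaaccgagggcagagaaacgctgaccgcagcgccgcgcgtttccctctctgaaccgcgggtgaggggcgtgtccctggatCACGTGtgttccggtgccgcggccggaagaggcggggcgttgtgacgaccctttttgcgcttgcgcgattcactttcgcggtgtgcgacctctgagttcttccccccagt
Polr1b: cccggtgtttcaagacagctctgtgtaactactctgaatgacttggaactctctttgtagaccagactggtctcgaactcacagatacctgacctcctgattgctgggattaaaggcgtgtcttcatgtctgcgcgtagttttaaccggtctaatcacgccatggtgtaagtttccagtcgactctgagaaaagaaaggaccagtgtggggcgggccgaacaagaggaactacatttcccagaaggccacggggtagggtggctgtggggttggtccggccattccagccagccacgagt
Rrn3: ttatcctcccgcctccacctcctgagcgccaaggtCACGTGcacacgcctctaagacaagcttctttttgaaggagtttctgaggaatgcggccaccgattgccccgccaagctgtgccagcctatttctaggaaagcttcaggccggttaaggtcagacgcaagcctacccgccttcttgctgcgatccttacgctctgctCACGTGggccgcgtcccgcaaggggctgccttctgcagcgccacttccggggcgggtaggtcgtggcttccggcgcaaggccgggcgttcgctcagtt

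Myc (ENSMUSG00000022346, chr15:61857227-61862223, plus strand) stood at 349, 329 and 339.6 CPM in vehicle-treated and 387, 368 and 369 CPM in S1P-treated replicates 1, 2 and 3. All 3 S1P-treated samples were above all vehicle-treated samples, by a small margin, and the log2 fold change of 0.14 ± 0.06 (SE, adjusted p by edgeR = 0.12) did not pass. The mean CPM went from 339 ± 10.3 to 374 ± 10.52 (SD, n = 3 each). Without S1P-treated replicate 2 the change was 0.16 (adjusted p by edgeR = 0.0485), which passed the adjusted p and not the fold threshold. Max (ENSMUSG00000059436, chr12:76984043-77009009, minus strand), the obligate partner, had 165, 162 and 164 CPM with vehicle and 167, 221 and 182 CPM with S1P. The vehicle-treated samples lay within a few CPM of each other, the S1P-treated ones spread widely with replicate 2 highest, and the log2 fold change of 0.21 (adjusted p by edgeR = 0.108) was 0.09 without that replicate. Leaving out S1P-treated replicate 1 instead gave 0.29 (adjusted p by edgeR = 0.0208), just under the fold threshold.

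Of the other genes of the MYC network, 10 of 12 were tested, and 3 rose (30%) and 1 fell (10%). Over all genes tested, 12.7% were called higher and 10.4% lower. DESeq2 called 2 of the 10 higher and 1 lower, and limma-voom 3 higher and 1 lower. The 3 that rose with edgeR encode proteins that pair with MAX in place of MYC and repress transcription. Mxi1 had 22.8, 29.8 and 19.1 CPM with vehicle and 69.9, 55.4 and 64.1 CPM with S1P, so that the groups were far apart, and its log2 fold change was 1.41 ± 0.14 (SE, adjusted p by edgeR = 6.24e-05). Mxd1 had 20.2, 21.7 and 20.1 CPM with vehicle and 39.7, 39.7 and 31.8 CPM with S1P, a log2 fold change of 0.84 ± 0.10 (SE, adjusted p by edgeR = 0.000201). Mxi1 and Mxd1 were called under all 18 alternatives tried. Mxd4, at 0.37 (adjusted p by edgeR = 0.0249), lost its call with DESeq2, with total counts as the only scaling, without a filter on low counts and without each library in turn apart from S1P-treated replicate 2, and without S1P-treated replicate 3 stood at 0.32 (adjusted p by edgeR = 0.0962). Mlx, which encodes the partner of the glucose-sensing factor MLXIP, fell with a log2 fold change of -0.32 (adjusted p by edgeR = 0.0112), and missed the call without vehicle-treated replicate 1, at -0.30 (adjusted p by edgeR = 0.0562), and with upper-quartile scaling or an offset for GC content, down to -0.28. The repressor partners Mnt (0.09) and Mxd3 (-0.24), as well as Mga (0.19), for another MAX-binding protein, Mlxip (-0.16) and Zbtb17 (-0.13), for the MYC-binding factor MIZ1, did not pass. A single library moved each of these 5 by over 1.5 times, Mxd3 to -0.08 and Mga to 0.12 without S1P-treated replicate 2, and Mxd3 to -0.48 and Mlxip to -0.08 without S1P-treated replicate 3. Zbtb17 came to -0.07 when either vehicle-treated replicate 3 or S1P-treated replicate 3 was left out, and Mnt to 0.06 without S1P-treated replicate 1. Mycn had few counts, at 0.521 ± 0.283 CPM with vehicle and 0.506 ± 0.439 CPM with S1P, and Mycl and Mlxipl had too few counts for a test.

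**Figure D2:**
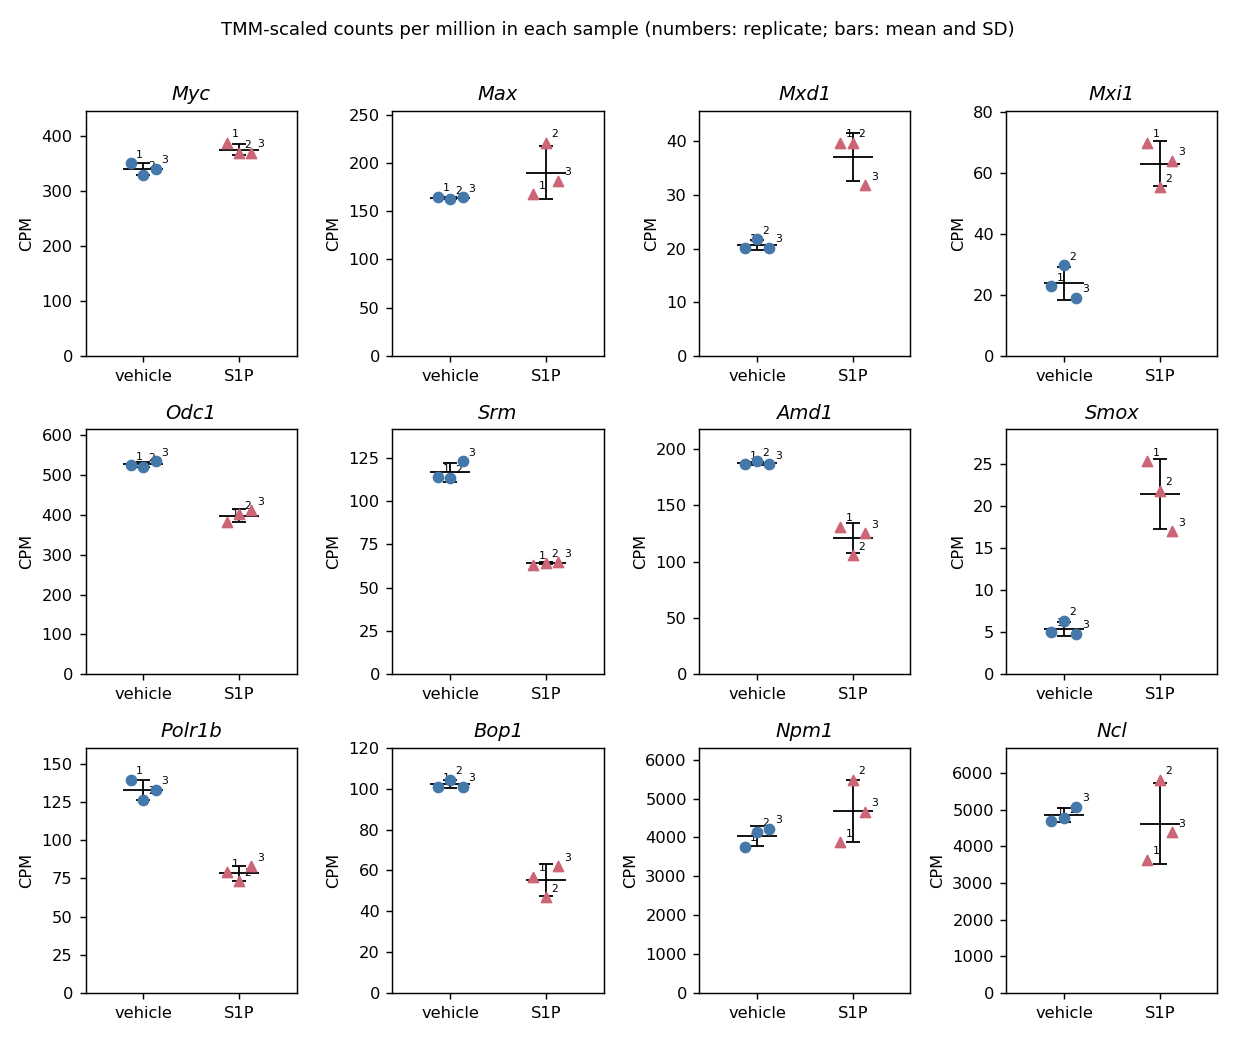
TMM-scaled CPM (vertical axes, each from 0) of 12 genes in each of the 3 vehicle-treated (blue circles) and 3 S1P-treated samples (red triangles), numbered by replicate, with the mean and SD as black bars. Mxd1, Mxi1 and Smox are higher in every S1P-treated sample, Odc1, Srm, Amd1, Polr1b and Bop1 are lower in every one, and in Npm1 and Ncl S1P-treated replicate 2 lies above all vehicle-treated samples.

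Of the 3 genes for polyamine synthesis, Srm and Odc1 fell and Sms did not pass. Srm (ENSMUSG00000006442, chr4:148675940-148681792, plus strand), which encodes spermidine synthase, had 114, 113 and 123 CPM with vehicle and 63.4, 64.5 and 64.8 CPM with S1P. The S1P-treated samples were nearly equal and all far below the vehicle-treated ones. The log2 fold change was -0.86 ± 0.07 (SE, adjusted p by edgeR = 1.66e-05), the second largest fall of the 36 genes with all samples included. The fall of Srm was larger than that of Bop1, the first in rank, without vehicle-treated replicate 2 or S1P-treated replicate 2. Odc1 (ENSMUSG00000011179, chr12:17594383-17601507, plus strand), for ornithine decarboxylase, the first enzyme of the pathway, had 524, 519.8 and 533 CPM with vehicle and 380.4, 402 and 411 CPM with S1P. The groups were again apart, with a log2 fold change of -0.40 ± 0.07 (SE, adjusted p by edgeR = 0.00113), and 18.7% of the gene's 31-base stretches also occur in transcripts of other genes. Sms, for spermine synthase, had 214, 211 and 216 CPM with vehicle and 179.6, 202 and 187 CPM with S1P. Its groups did not overlap, but the log2 fold change of -0.18 ± 0.07 (SE, adjusted p by edgeR = 0.0676) did not pass. Without S1P-treated replicate 2 it was -0.22 (adjusted p by edgeR = 0.00702), past the adjusted p and under the fold threshold.

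Among 12 other tested genes of polyamine metabolism, 6 fell (50%) and 2 rose (16.7%). Over all genes tested, 10.4% were called lower and 12.7% higher, so the share that rose was close to that of all genes. At an unadjusted p of 0.05, edgeR gave 7 lower and 3 higher of the 12. DESeq2 and limma-voom each called 6 lower and 2 higher. Amd1, which makes the decarboxylated S-adenosylmethionine that SRM and SMS use, went from 187 ± 1.40 to 121 ± 13.3 CPM (SD, n = 3 each), with a fold change on the log2 scale of -0.63 ± 0.08 (SE, adjusted p by edgeR = 0.00027). Smox, for spermine oxidase, had 5.07, 6.38 and 4.82 CPM with vehicle and 25.3, 21.9 and 17 CPM with S1P, with every S1P-treated sample above every vehicle-treated one and a log2 fold change of 1.99 ± 0.17 (SE, adjusted p by edgeR = 2.47e-05). Sat1, which acetylates polyamines for breakdown and export, rose with a log2 fold change of 0.35 (adjusted p by edgeR = 0.00228), which is 0.29 and under the threshold with an offset for GC content. The genes of the eIF5A pathway fell: Eif5a went from 1293 ± 20.4 to 925 ± 88.2 CPM (SD, n = 3 each) and had a log2 fold change of -0.48 (adjusted p by edgeR = 0.00141), and the modifying enzymes Dhps and Dohh had log2 fold changes of -0.71 (adjusted p by edgeR = 0.013) and -0.998 (adjusted p by edgeR = 0.00571), the latter at only 3.11 ± 0.181 CPM with vehicle. Dhps lost its call without vehicle-treated replicate 3, at -0.68 (adjusted p by edgeR = 0.0527), and without S1P-treated replicate 3, at -0.72 (adjusted p by edgeR = 0.0508).

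Oaz1, for the antizyme that inhibits ornithine decarboxylase, had 142, 135 and 137 CPM with vehicle and 123, 77.4 and 112 CPM with S1P. Its log2 fold change of -0.40 (adjusted p by edgeR = 0.0374) rested most on S1P-treated replicate 2, and without that replicate the log2 fold change was -0.23, under the threshold. It also lost its call when any vehicle-treated sample or S1P-treated replicate 3 was left out, with adjusted p-values by edgeR of up to 0.113. Atp13a3, for a polyamine transporter, fell by 0.31 in log2 units (adjusted p by edgeR = 0.00517), and by 0.28 without S1P-treated replicate 2, under the threshold, which it also missed with upper-quartile scaling and with a mean count of 50 as the filter. Azin1 (-0.21) passed the adjusted p (0.0452, edgeR) with a smaller change, though not when any library other than S1P-treated replicate 2 was left out, and Oaz2 (0.26), Paox (-0.25) and Atp13a2 (-0.04) did not pass. Paox was at -0.12 without S1P-treated replicate 2, and Oaz2 at 0.16 without vehicle-treated replicate 2. Azin2 had too few counts for a test.

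RNA polymerase I was represented by 3 subunits and 2 initiation factors, of which 2 genes fell. Polr1b (ENSMUSG00000027395, chr2:128942903-128970214, plus strand), for the second largest subunit, whose window shown above holds no CACGTG, had 139, 126 and 133 CPM with vehicle and 78.9, 73 and 82.9 CPM with S1P. The groups were well apart, with a log2 fold change of -0.76 ± 0.07 (SE, adjusted p by edgeR = 4.82e-05). Ubtf, for the upstream binding factor that keeps ribosomal DNA open and recruits the polymerase, had 313, 319.7 and 309.8 CPM with vehicle and 199.9, 257 and 232 CPM with S1P. The S1P-treated samples were all lower and differed among themselves, with a log2 fold change of -0.45 ± 0.09 (SE, adjusted p by edgeR = 0.00289). Polr1a, for the largest subunit, had 259, 242 and 257 CPM with vehicle and 197, 209.8 and 211 CPM with S1P, and its log2 fold change of -0.30 ± 0.07 (SE, adjusted p by edgeR = 0.00644) passed the adjusted p and lay just under the fold threshold. Rrn3, for the factor TIF-IA that couples the polymerase to its promoter, was alike, at -0.29 ± 0.07 (SE, adjusted p by edgeR = 0.00917). Both were also called in fits that left out 1 library, Polr1a at -0.33 and Rrn3 at -0.33 without vehicle-treated replicate 2. With them, 4 of the 5 genes were lower when either vehicle-treated replicate 2 or S1P-treated replicate 3 was left out. Polr1c, for a subunit that RNA polymerases I and III share, had 44.8, 48.8 and 42.2 CPM with vehicle and 46.9, 45.3 and 49 CPM with S1P, so that its groups overlapped, with a log2 fold change of 0.06 ± 0.08 (SE, adjusted p by edgeR = 0.629) that single libraries moved to between 0.01 (vehicle-treated replicate 3 left out) and 0.11 (vehicle-treated replicate 2 left out).

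Of 17 other genes for RNA polymerase I subunits and its initiation complex, 7 fell (41.2%) and 0 rose with edgeR. Over all genes tested, 10.4% were called lower and 12.7% higher. At an unadjusted p of 0.05 there were 1 higher and 8 lower, where all 13299 genes tested gave 2777 higher and 2605 lower. DESeq2 and limma-voom each called 0 higher and 7 lower of the 17. The median log2 fold change was -0.18. Without vehicle-treated replicate 3, 4 of them were lower and the median was -0.11, and without S1P-treated replicate 1 the median was -0.12. The largest falls were those of Polr2l (-0.70, adjusted p by edgeR = 0.0033) and Polr2f (-0.59, adjusted p by edgeR = 0.00305), subunits common to all nuclear RNA polymerases, and of Taf1c (-0.52, adjusted p by edgeR = 0.0338), part of the promoter selectivity factor. Taf1c lost its call when any of 4 of the 6 libraries was removed, with adjusted p-values by edgeR of up to 0.139.

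Of 5 genes for proteins that organize the nucleolus 3 fell, and the most abundant, Npm1 and Ncl, did not pass. Npm1, for nucleophosmin, a chaperone of the granular part of the nucleolus, had 3756, 4143 and 4223 CPM with vehicle and 3878, 5479.9 and 4660.3 CPM with S1P. Ncl, for nucleolin, which binds the ribosomal RNA precursor, had 4708, 4779 and 5091 CPM with vehicle and 3638, 5819 and 4389 CPM with S1P. In both genes S1P-treated replicate 2 was the highest of all 6 samples and S1P-treated replicate 1 was the lowest S1P-treated sample, so that the groups overlapped. The log2 fold change was 0.21 ± 0.12 (SE, adjusted p by edgeR = 0.206) for Npm1 and -0.07 ± 0.14 (SE, adjusted p by edgeR = 0.728) for Ncl. Without S1P-treated replicate 1, Npm1 was called higher at 0.33 (adjusted p by edgeR = 0.0204) and Ncl turned to 0.07 (adjusted p by edgeR = 0.665). Without S1P-treated replicate 2, the values were 0.08 (adjusted p by edgeR = 0.492) and -0.27 (adjusted p by edgeR = 0.018). Npm1 shares 12% of its 31-base stretches with other annotated genes.

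The other 3 genes of this group fell. Gnl3, for the GTP-binding protein nucleostemin, had 309, 297 and 339 CPM with vehicle and 209, 244 and 242 CPM with S1P, a log2 fold change of -0.44 ± 0.08 (SE, adjusted p by edgeR = 0.00219). Nolc1, for a phosphoprotein that carries snoRNPs between nucleolus and Cajal bodies, had 459.5, 467 and 505 CPM with vehicle and 301, 405 and 356 CPM with S1P, a log2 fold change of -0.43 ± 0.10 (SE, adjusted p by edgeR = 0.00757). Both were called without each library in turn. Ddx21, an RNA helicase of the nucleolus, went from 1039 ± 34.1 to 808 ± 99.7 CPM (SD, n = 3 each) with a log2 fold change of -0.36 ± 0.09 (SE, adjusted p by edgeR = 0.0124). It lost its call without vehicle-treated replicate 3, at -0.34 (adjusted p by edgeR = 0.057), and without S1P-treated replicate 1, at -0.27 (adjusted p by edgeR = 0.018).

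Of the core proteins of snoRNPs, 3 of 4 genes fell for each box type. For box C/D, Fbl, the methyltransferase fibrillarin, had 234, 236 and 244 CPM with vehicle and 173, 181 and 203 CPM with S1P, a log2 fold change of -0.36 ± 0.07 (SE, adjusted p by edgeR = 0.00396). The scaffold protein gene Nop56 went from 498 ± 13.5 to 398 ± 21.8 CPM (SD, n = 3 each) and had a log2 fold change of -0.32 ± 0.07 (SE, adjusted p by edgeR = 0.00536), which was -0.29 without S1P-treated replicate 1 and -0.29 with an offset for GC content, both under the threshold, as was its value with upper-quartile scaling. Rrp9, for a protein of the U3 snoRNP, had 59, 56.3 and 67.1 CPM with vehicle and 38.4, 47.2 and 44.4 CPM with S1P, a log2 fold change of -0.49 ± 0.10 (SE, adjusted p by edgeR = 0.0031). Nop58, the partner of Nop56, showed the same order of samples as Ncl after S1P, with 532, 545 and 566 CPM with vehicle and 387, 610.2 and 490.4 CPM with S1P. Its log2 fold change of -0.14 ± 0.13 (SE, adjusted p by edgeR = 0.43) became -0.32 (adjusted p by edgeR = 0.00995) without S1P-treated replicate 2, where it was called lower, and 0.01 (adjusted p by edgeR = 0.969) without S1P-treated replicate 1. Nop56 and Fbl share 18.6% and 14.8% of their 31-base stretches with other genes.

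For box H/ACA, Nop10, for a small core protein that binds dyskerin, had 65.8, 76.2 and 74.8 CPM with vehicle and 41.9, 50.3 and 61.8 CPM with S1P, with a log2 fold change of -0.50 ± 0.12 (SE, adjusted p by edgeR = 0.0104). Dkc1, for the pseudouridine synthase dyskerin, had 377, 380.1 and 403 CPM with vehicle and 247, 349.9 and 285 CPM with S1P, with a log2 fold change of -0.40 ± 0.11 (SE, adjusted p by edgeR = 0.0168). It lost its call without vehicle-treated replicate 3, S1P-treated replicate 1 or S1P-treated replicate 3, at -0.37 (adjusted p by edgeR = 0.0711), -0.29 (adjusted p by edgeR = 0.0302) and -0.38 (adjusted p by edgeR = 0.0601). Nhp2, for another core protein, was at the edge of the threshold, at -0.30 ± 0.09 (SE, adjusted p by edgeR = 0.025), and lost its call when any of 4 of the 6 libraries was removed, reaching -0.21 on the log2 scale without S1P-treated replicate 1. It also lost its call with upper-quartile scaling, a mean count of 50 as the filter or an offset for GC content. The count of 3 genes dropped to 1 when vehicle-treated replicate 3, S1P-treated replicate 1 or S1P-treated replicate 3 was left out, and to 2 for vehicle-treated replicate 2. Gar1, which binds dyskerin in the same particle, had 78, 82.5 and 104 CPM with vehicle and 64.8, 98.6 and 86.7 CPM with S1P. The groups overlapped, with S1P-treated replicate 1 lowest and vehicle-treated replicate 3 highest of all samples, and the log2 fold change was -0.09 ± 0.14 (SE, adjusted p by edgeR = 0.691). In the annotation, 25.1% of the exon bases of Nhp2 lie under Rmnd5b and 20.1% of those of Dkc1 under Mpp1, both on the opposite strand.

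Of 11 other genes for snoRNP proteins and their assembly, 4 fell and 0 rose with edgeR, with a median log2 fold change of -0.24. At an unadjusted p of 0.05 there were 1 higher and 7 lower, where all 13299 genes tested gave 2777 higher and 2605 lower. DESeq2 and limma-voom each called 4 lower and 0 higher of the 11. Snu13, the protein that first binds box C/D RNA, went from 183 ± 0.515 to 118 ± 10.52 CPM (SD, n = 3 each), with a fold change on the log2 scale of -0.64 (adjusted p by edgeR = 0.000154). Znhit6 (-0.53, adjusted p by edgeR = 0.0055) and Shq1 (-0.46, adjusted p by edgeR = 0.0121), an assembly factor for box C/D and a chaperone of dyskerin, also fell. Without S1P-treated replicate 1, 1 of the 11 genes was higher. Shq1 lost its call without vehicle-treated replicate 3, at -0.45 (adjusted p by edgeR = 0.0507).

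For the small subunit, Utp20 (ENSMUSG00000004356, chr10:88582469-88662699, minus strand), a large scaffold of the processome whose promoter window holds CACGTG, had 296, 278 and 265 CPM with vehicle and 167, 179 and 195 CPM with S1P. Rrp12, which acts in late maturation and export of pre-ribosomes, had 95.6, 94.1 and 95 CPM with vehicle and 54.6, 64.3 and 68.7 CPM with S1P. Both genes had groups far apart, with log2 fold changes of -0.63 ± 0.08 (SE, adjusted p by edgeR = 0.000201) and -0.61 ± 0.08 (SE, adjusted p by edgeR = 0.00047). Wdr43, for a processome protein of the UTP-A complex, had 383, 382 and 418 CPM with vehicle and 282, 388 and 313 CPM with S1P, where only S1P-treated replicate 2 reached the vehicle-treated range, and its log2 fold change of -0.27 ± 0.10 (SE, adjusted p by edgeR = 0.0729) was -0.40 (adjusted p by edgeR = 0.000449) without that replicate and -0.17 (adjusted p by edgeR = 0.183) when S1P-treated replicate 1 was left out. Nop14, for a processome protein, had 135, 144 and 141 CPM with vehicle and 137, 195 and 150.2 CPM with S1P. Its groups overlapped, with S1P-treated replicate 2 highest and a log2 fold change of 0.20 ± 0.11 (SE, adjusted p by edgeR = 0.206), which was 0.30 (adjusted p by edgeR = 0.036) and called higher without S1P-treated replicate 1, and 0.04 when S1P-treated replicate 2 was left out instead.

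The other genes of the processome and of late small subunit maturation numbered 49, and 30 of them fell and 0 rose with edgeR, with a median log2 fold change of -0.38. At an unadjusted p of 0.05 there was 1 higher and 35 lower, where all 13299 genes tested gave 2777 higher and 2605 lower. DESeq2 called 31 of the 49 lower and 0 higher, and limma-voom 30 lower and 0 higher. With each library left out in turn, 28 to 33 were lower, and 2 were higher without S1P-treated replicate 1. The largest falls were those of Tbl3, from 58.1 ± 0.329 to 32.4 ± 2.82 CPM with a log2 fold change of -0.84 (adjusted p by edgeR = 5.05e-05), Pno1 at -0.78 (adjusted p by edgeR = 9.54e-05) and Nol6 at -0.76 (adjusted p by edgeR = 0.000229). TBL3 belongs to the UTP-B complex of the processome, NOL6 to its UTP-C complex, and PNO1 stays with the small subunit into the cytoplasm.

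Of 9 genes for large subunit assembly 8 fell (88.9%), with no overlap of the groups in any of the 9. Over all genes tested, 10.4% were called lower and 22.6% were lower without overlap. Bop1 (ENSMUSG00000022557, chr15:76337155-76362079, minus strand), a scaffold of the complex with PES1 and WDR12 that processes the RNAs of the large subunit, had 101, 104 and 101 CPM with vehicle and 56.9, 46.9 and 61.9 CPM with S1P. Its log2 fold change of -0.88 ± 0.09 (SE, adjusted p by edgeR = 8.13e-05) was the largest fall of the 36 genes with all samples included. Srm fell further without S1P-treated replicate 2 (-0.86 against -0.78 for Bop1) and without vehicle-treated replicate 2 (-0.89 against -0.87). Wdr12 had 116, 118 and 122 CPM with vehicle and 73.5, 76.3 and 85.5 CPM with S1P, a log2 fold change of -0.60 ± 0.07 (SE, adjusted p by edgeR = 0.000208). Pes1, the other partner, had 141, 145 and 141 CPM with vehicle and 118, 110.4 and 122 CPM with S1P, and passed the adjusted p with a log2 fold change of -0.28 ± 0.06 (SE, adjusted p by edgeR = 0.00749), just under the fold threshold. Differences between the 3 genes of this complex were not tested. Exons of Bop1 lie under Hsf1 of the opposite strand for 15.3% of their bases, and 21.4% of the 31-base stretches of Pes1 also occur in other genes.

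Wdr74, for a protein of early large subunit precursors that a remodeling ATPase releases, had 57.2, 60.6 and 58 CPM with vehicle and 36.9, 31.6 and 40.0 CPM with S1P, a log2 fold change of -0.69 ± 0.09 (SE, adjusted p by edgeR = 0.000273). Nop2, a methyltransferase for large subunit RNA and the other gene that fell with CACGTG in its window, had 179, 172 and 202 CPM with vehicle and 115, 145 and 133 CPM with S1P, a log2 fold change of -0.49 ± 0.09 (SE, adjusted p by edgeR = 0.00275). Rrs1, which helps to bring a ribosomal RNA into the large subunit, went from 92.8 ± 2.20 to 65.8 ± 5.69 CPM (SD, n = 3 each), with a fold change on the log2 scale of -0.50 ± 0.08 (SE, adjusted p by edgeR = 0.000768), with 39.4% of its exon bases under 2610203C22Rik of the opposite strand. These 3 genes were called under all 18 alternatives. Rrp1b (-0.45, adjusted p by edgeR = 0.000462), Nop16 (-0.42, adjusted p by edgeR = 0.00326) and Noc2l (-0.34, adjusted p by edgeR = 0.00255), which also take part in assembly of the large subunit, fell as well. Noc2l had a log2 fold change of -0.28 with an offset for GC content, under the threshold.

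Of 46 other genes of large subunit assembly, 24 fell and 2 rose, with a median log2 fold change of -0.32. Grwd1, a histone-binding WD repeat protein found in pre-ribosomes, fell most, from 60.1 ± 2.11 to 29.3 ± 3.51 CPM (SD, n = 3 each), with a log2 fold change of -1.04 ± 0.09 (SE, adjusted p by edgeR = 3.62e-05). Wdr18 (-0.69, adjusted p by edgeR = 9.39e-05) and Urb1 (-0.62, adjusted p by edgeR = 0.000295) came next. Nop53 rose from 173 ± 10.3 to 240.5 ± 2.92 CPM (SD, n = 3 each), with a log2 fold change of 0.48 ± 0.07 (SE, adjusted p by edgeR = 0.000474), and was called under all 18 alternatives. Nsa2 (0.46, adjusted p by edgeR = 0.0163) also rose, and was higher by 0.28 in log2 units, under the threshold, when S1P-treated replicate 2 was left out. It lost its call without vehicle-treated replicate 1 and vehicle-treated replicate 2 as well, at adjusted p-values by edgeR of 0.0748 and 0.0518. Without S1P-treated replicate 1, 3 of the 46 genes were higher, and without vehicle-treated replicate 1, vehicle-treated replicate 2 or S1P-treated replicate 2, 1 was.

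Over the 4 lists of other ribosome biogenesis genes together, 65 of 123 fell (52.8%) and 2 rose (1.63%). The shares over all genes tested were 10.4% lower and 12.7% higher. With each library left out in turn, 54 to 71 of the 123 were lower. The number that rose was 6 without S1P-treated replicate 1, and 1 without vehicle-treated replicate 1, vehicle-treated replicate 2 or S1P-treated replicate 2. Of 80 tested genes for the cytosolic ribosomal proteins themselves, 0 fell and 9 rose (11.2%), close to the share of higher genes over all genes tested, and their median log2 fold change was 0.10. At an unadjusted p of 0.05 edgeR gave 2 lower and 26 higher, where all 13299 genes tested gave 2605 lower and 2777 higher. DESeq2 and limma-voom each called 1 lower and 9 higher of the 80. Without S1P-treated replicate 1 the number of higher genes was 22, without vehicle-treated replicate 1 it was 1, and it was 3 to 5 without each of the other 4 libraries. The median was 0.06 without vehicle-treated replicate 1 and 0.05 when S1P-treated replicate 3 was left out. The largest rise was that of Rpl12, from 521 ± 65.5 to 1075 ± 339.8 CPM (SD, n = 3 each), with a log2 fold change of 1.04 ± 0.19 (SE, adjusted p by edgeR = 0.00238), followed by Rps24 (0.52, adjusted p by edgeR = 0.0133) and Rpl23 (0.51, adjusted p by edgeR = 0.0326). Rps24 lost its call without vehicle-treated replicate 1 and Rpl23 with DESeq2 and without each library other than S1P-treated replicate 1, down to 0.27 on the log2 scale when S1P-treated replicate 2 was left out. Many ribosomal protein genes have processed pseudogenes that can share their reads. Summed over the 80 genes, the share of all counts was 6.18% ± 0.27 (SD, n = 3) with vehicle and 6.65% ± 0.31 (SD, n = 3) with S1P.

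Genes known as MYC targets that act outside the nucleolus were described from a list of 24, of which 23 were tested. With edgeR 9 fell (39.1%) and 0 rose, and the median log2 fold change was -0.26. Over all genes tested, 10.4% were called lower and 12.7% higher. At an unadjusted p of 0.05 there was 1 higher and 14 lower, where all 13299 genes tested gave 2777 higher and 2605 lower. DESeq2 called 10 of the 23 lower and 0 higher, and limma-voom 9 lower and 0 higher. Cad, for the enzyme that starts pyrimidine synthesis, fell from 336 ± 21.6 to 199.9 ± 41.4 CPM (SD, n = 3 each) with a log2 fold change of -0.75 (adjusted p by edgeR = 0.00134). Nme1, a nucleoside diphosphate kinase gene, and Shmt1, for a serine hydroxymethyltransferase, had log2 fold changes of -0.70 (adjusted p by edgeR = 0.00044) and -0.68 (adjusted p by edgeR = 0.000101). All 3 were called under all 18 alternatives. Without S1P-treated replicate 2, and with an offset for GC content, 1 of the 23 genes was higher.

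**Figure D3:**
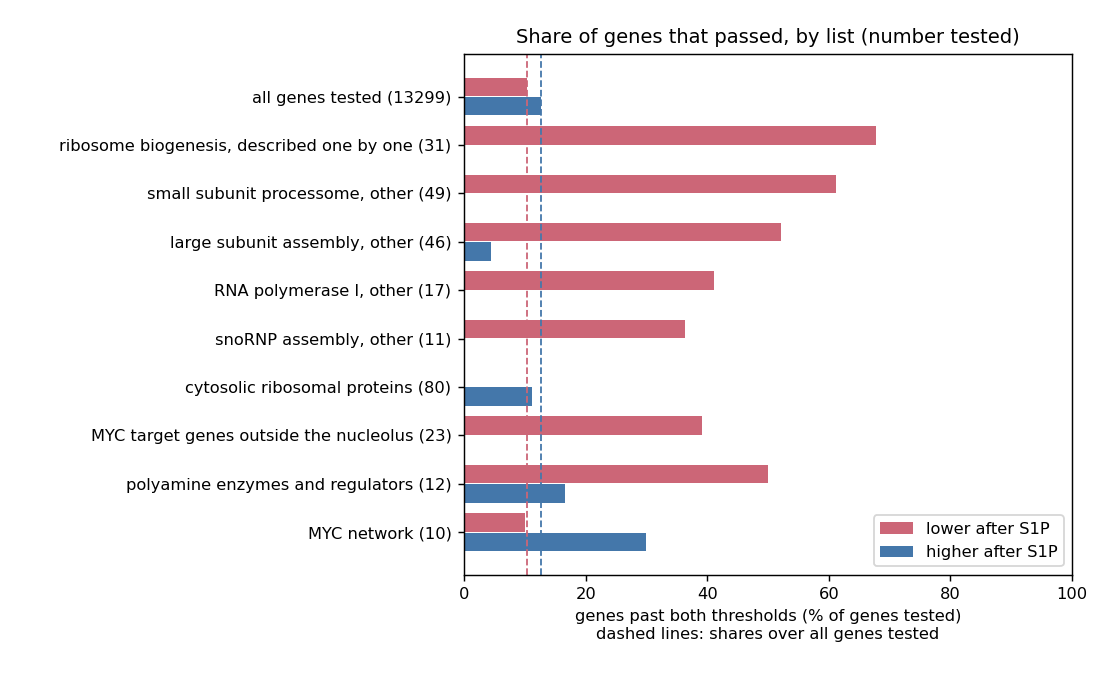
Share of tested genes called lower (red) and higher (blue) after S1P, in percent of the genes tested in each list, with the number tested in parentheses and dashed lines at the shares over all genes tested, 10.4% lower and 12.7% higher. The lower bars of all 4 lists of other ribosome biogenesis genes lie between 36.4% and 61.2%, the cytosolic ribosomal proteins have no lower bar, and the MYC network has its higher bar from 3 of 10 genes.

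The 3 S1P-treated samples differed in how far the 36 genes lay below vehicle. Relative to the mean of the vehicle-treated samples, the median over the 36 genes was -0.50, -0.28 and -0.35 on the log2 scale in S1P-treated replicates 1, 2 and 3, and -0.02, -0.02 and 0.03 in the vehicle-treated ones. All S1P-treated samples lay below all vehicle-treated samples on this measure. Replicate 1 was the lowest of the S1P-treated samples in 30 of the 36 genes and replicate 2 in 6, and replicate 2 was the highest in 20. The genes with the largest excess of replicate 2 over replicate 1 were Ncl, Nop58, Gar1 and Nop14, none of them called, followed by Dkc1 and Npm1. Across the 36 genes, the excess of replicate 2 over replicate 1 went with lower exon GC content (Pearson's r = -0.40, Spearman's rho = -0.34, n = 36 genes of the same 2 libraries), given as a description. GC content of the exons ranged from 39.7% in Nop58 to 60.1% in Ubtf. With an offset for GC content 22 of the 36 genes were lower, and without S1P-treated replicate 2, 26 were. Without S1P-treated replicate 1, 19 were lower and 2, Npm1 and Nop14, were higher. The part of the high mitochondrial share of replicate 2 in these differences was not tested.

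**Figure D4:**
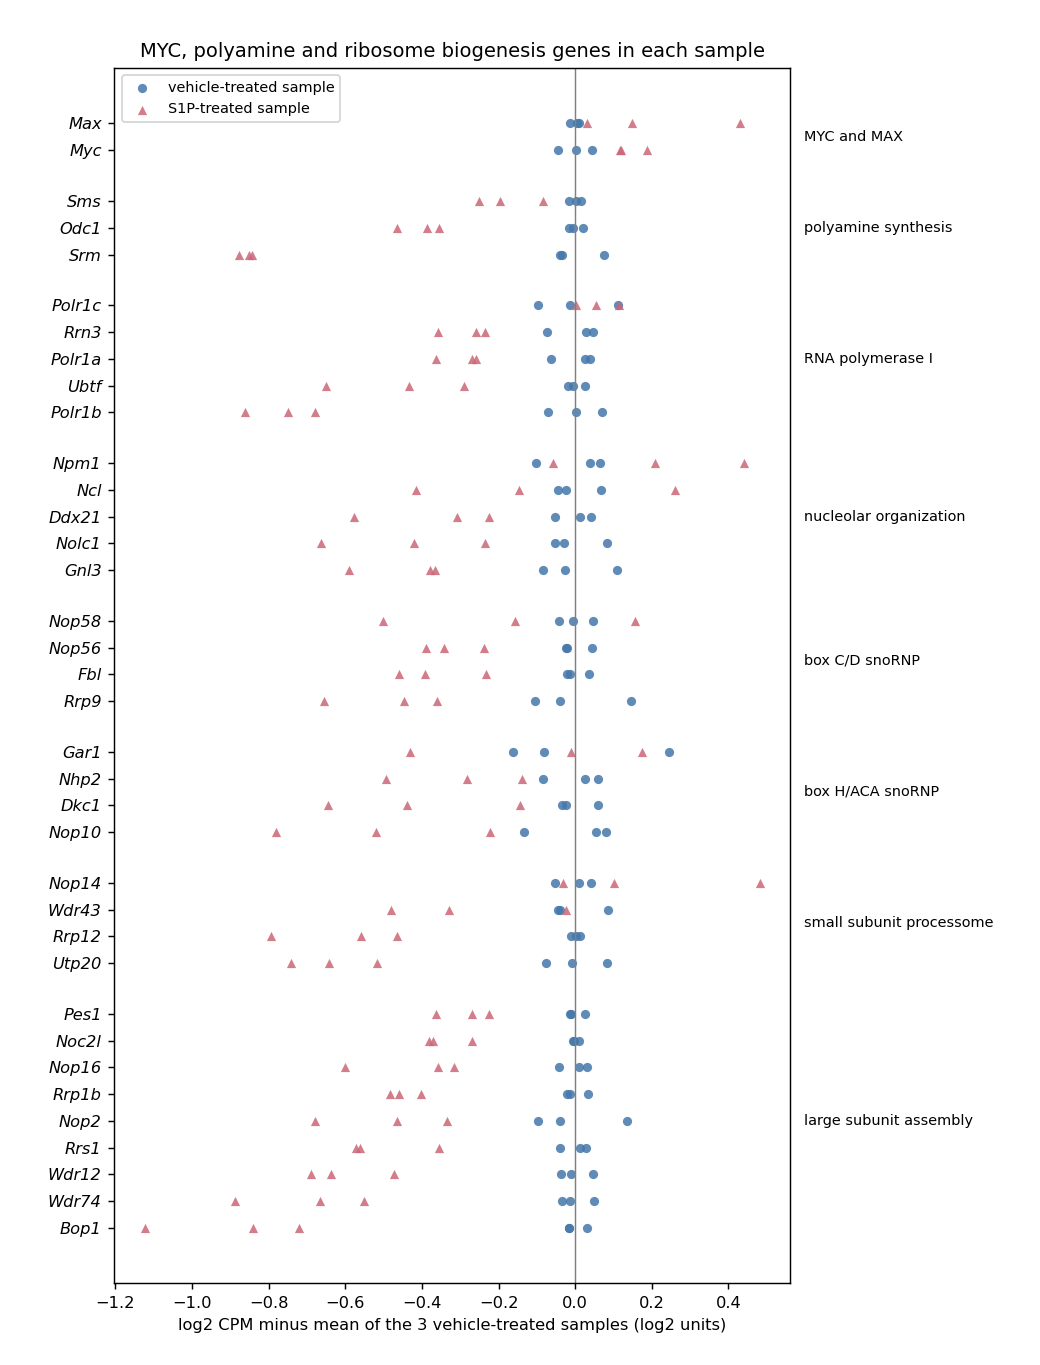
Level of each of the 36 genes in each sample as log2 CPM minus the mean of the 3 vehicle-treated samples (horizontal axis, log2 units), with vehicle-treated samples as blue circles and S1P-treated samples as red triangles, grouped by role. The triangles of 27 genes all lie to the left of their circles, those of Myc and Max to the right, and the rows of Ncl, Npm1, Nop58, Gar1 and Nop14 have triangles on both sides of 0.

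By level per kilobase of the canonical transcript, Npm1 stood first with 2427 CPM per kilobase in vehicle-treated samples, Ncl second with 586 and Odc1 next with 227. Myc was eighth, at 143 CPM per kilobase, and Wdr12 last, at 11.9. The 2 most abundant genes were thus among those that did not pass. Summed over the 36 genes, the share of all counts was 1.68%, 1.69% and 1.78% in vehicle-treated and 1.37%, 1.73% and 1.56% in S1P-treated replicates 1, 2 and 3. On this sum, in which Npm1 and Ncl weigh most, the groups overlapped through S1P-treated replicate 2.

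In the annotation, 7 of the 36 genes hold snoRNA or scaRNA genes inside their bounds on the same strand (Ncl, Nop58, Nop56, Gnl3, Wdr43, Dkc1 and Odc1), with 5 in Nop56 and 4 in Nop58. Of these hosts, 4 fell, and their median log2 fold change was -0.32, with a range of -0.44 to -0.07. Of the 29 other genes 19 fell, with a median of -0.42 and a range of -0.88 to 0.21. These groups were formed after the values were seen and were not tested.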

How the data were processed

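RNA was sequenced from 3 vehicle-treated and 3 S1P-treated samples as strand-specific polyadenylated libraries. The authors trimmed reads with Trim Galore, aligned them with STAR to GRCm39 (named in the submitters' processing notes) and deposited featureCounts gene counts, whole numbers without normalization. Tool versions, annotation release, strand setting and handling of multiply mapped reads are not given in the sources used here, so genes that overlap or share sequence with others may hold misassigned counts. GENCODE vM39 gave symbols for 56323 of 56941 identifiers.

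Counts were filtered with filterByExpr, scaled with TMM factors and entered a model with 1 term, the treatment, in edgeR 4.0.16 (R 4.3.3). Its quasi-likelihood test gave p-values for 13299 genes, which were adjusted by the Benjamini-Hochberg method. Standard errors are the size of the log2 fold change divided by the root of the F statistic. Following the study's thresholds, a call needs an adjusted p up to 0.05 and a change of 0.3 or more, up or down, in log2 units. The sources used here do not say that each sample came from its own mouse, so p-values measure only the spread between these samples. Replicate pairs differed by more than sampling noise, with a chi-square of 3.50 to 3.63 per gene between vehicle-treated samples. Between S1P-treated samples it was 5.39 for replicates 1 and 3. It was highest for the pairs with S1P-treated replicate 2, at 27.1 against replicate 1 and 16.0 against replicate 3.

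The 36 genes and the other lists were chosen with earlier results of these data known. The text names all 36 genes, every tested gene of the MYC network and polyamine lists, and up to 3 genes called each way in the other lists. Alternatives were scaling by RLE, by upper quartiles or by total counts alone, DESeq2 1.42.0, limma-voom (limma 3.58.1), other filters (none, a mean count of 50), the replicate number as a block, an offset for GC content (lowess, span 0.3), both together, other thresholds and each library left out.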

Additional observations from a re-analysis of the deposited data

How the results depend on the processing

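The number of the 36 genes called lower was 19 to 27 over all alternatives, and their median log2 fold change -0.42 to -0.32. Of the 23 genes called, 17 were called under all 18 alternatives. The 6 exceptions were Ddx21, Nop56, Dkc1, Nhp2, Nop10 (lost at the adjusted p of 0.01 alone) and Noc2l. Of the 13 others, 6 (Myc, Max, Sms, Polr1c, Ncl and Gar1) were called under none. With each library left out in turn, 19 to 26 of the 36 genes were lower, 0 to 2 higher, and the median was -0.42 to -0.32, while 961 to 1492 of all genes were lower and 1158 to 1736 higher. With the stricter adjusted p of 0.01, 1031 of all genes were higher and 826 lower, with 19 of the 36 lower. The sign of the log2 fold change turned without 1 library in Ncl (-0.27 to 0.070 over these fits), Nop58 (-0.32 to 0.0060), Gar1 (-0.22 to 0.071), Mycn (-0.32 to 0.58) and Atp13a2 (-0.15 to 0.11), none of them called. It also turned in Mycn with DESeq2 (-0.00581) and limma-voom (-0.70), and in Atp13a2 with the GC offset (0.023) and with GC offset and replicate block (0.012). The causes were not tested. Without a filter on low counts the median over all genes shifted to 0.16, and the 36 genes had a median of -0.41.

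The labels do not say that a shared replicate number marks shared mice, and numbers were not used as pairs, since the deviations of same-numbered samples from the group means did not all correlate over 0.1, at 0.12, -0.006 and 0.048 for numbers 1, 2 and 3. The first is the highest of the 9 correlations between samples of the groups, and vehicle-treated replicates 2 and 3 correlated best with S1P-treated replicates 3 and 2. With the replicate block 23 of the 36 genes were lower and 0 higher, with a median of -0.39, and 1697 genes were higher and 1423 lower in all. The few counts of Mycn limit the precision of its value.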
